A study of Drosophila melanogaster with 2 samples.

Results

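Binding of the nuclear receptor Hr78 was examined at 32 genes that build epithelial polarity and cell junctions in Drosophila melanogaster. The genes were taken as a list of names and were all found among the 13945 protein-coding genes that the Ensembl annotation places on the 6 chromosome arms. Of the 32, 31 were matched by their symbol, and mega was matched through a synonym to the gene annotated as pck. They were placed in 5 classes: Crumbs and Par complexes (6 genes), lateral polarity (4), septate junction (13), adherens junction (7) and cortical actin (2). The samples were 2 biological replicates, numbered 1 and 3, of whole embryos of both sexes aged 8 to 16 h. Both came from a single transgenic line that carries Hr78 fused at its C terminus to eGFP, and chromatin sheared to 200 to 800 bp was precipitated through the GFP tag. There was 1 group, with no other genotype or treatment, so nothing was compared between conditions. Since whole embryos were used, a site bound strongly in few cells and one bound weakly in many cannot be told apart.

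Epithelial cells are polarised by protein complexes that exclude each other. The transmembrane protein Crumbs with Stardust and Patj, and Bazooka with Par-6 and aPKC, mark the apical side, and Par-1, Lethal giant larvae, Discs large and Scribble mark the lateral side. Adherens junctions, built on E-cadherin and the catenins, hold neighbouring cells together at the border of these domains. In insects the septate junctions lie below them and seal the space between cells, which matters for tubular epithelia such as the trachea. Hr78 is an orphan nuclear receptor with a zinc-finger DNA-binding domain, and receptors of this family bind hexamers close to AGGTCA, alone or in direct repeats.

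Of the 32 genes, 20 (62.5%) held at least 1 summit of the authors' thresholded peak list, either within 1000 bp of an annotated transcript start or inside the gene. This list, called the optimal list here, holds the 5723 peaks that the authors kept after comparing the replicates. They are the peaks of highest signal among those called on both replicates together, so a single peak need not be high in both. A summit is the position of highest signal within a peak. Over all protein-coding genes the share was 21%. Within 1000 bp of a start, 12 of the 32 genes (37.5%) held a summit, against 16.5% of all genes. In the pooled list of 30000 peaks, called on both replicates together, 23 genes (71.9%) held a summit near a start, against 38.6% of all genes. Start and span together gave 25 genes (78.1%) in the pooled list, against 41.1%. The members were chosen with earlier results of these data known, so these shares are descriptions and were not tested.

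The genes differed in how many summits they held and how high those were. The 70 optimal summits of the 20 bound genes lay in 62 regions. Of these summits, 57 were in introns, 7 in 5' UTRs and 6 upstream of the gene. Only 26 of the 70 lay within 1000 bp of a start of their gene, and the other 44 were farther inside it. The junction scaffold gene pyd held 12 summits and the apical organiser baz held 8. A further 3 genes, cno, ed and Moe, held 6 each, so that these 5 genes accounted for 38 of the 70 summits. Signals of 1000 or more were reached at 6 genes, namely crb, baz, Mcr, ena, cno and scrib. The Mcr summits of that height lay nearer to the start of another gene, Bsg.

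**Figure D1:**
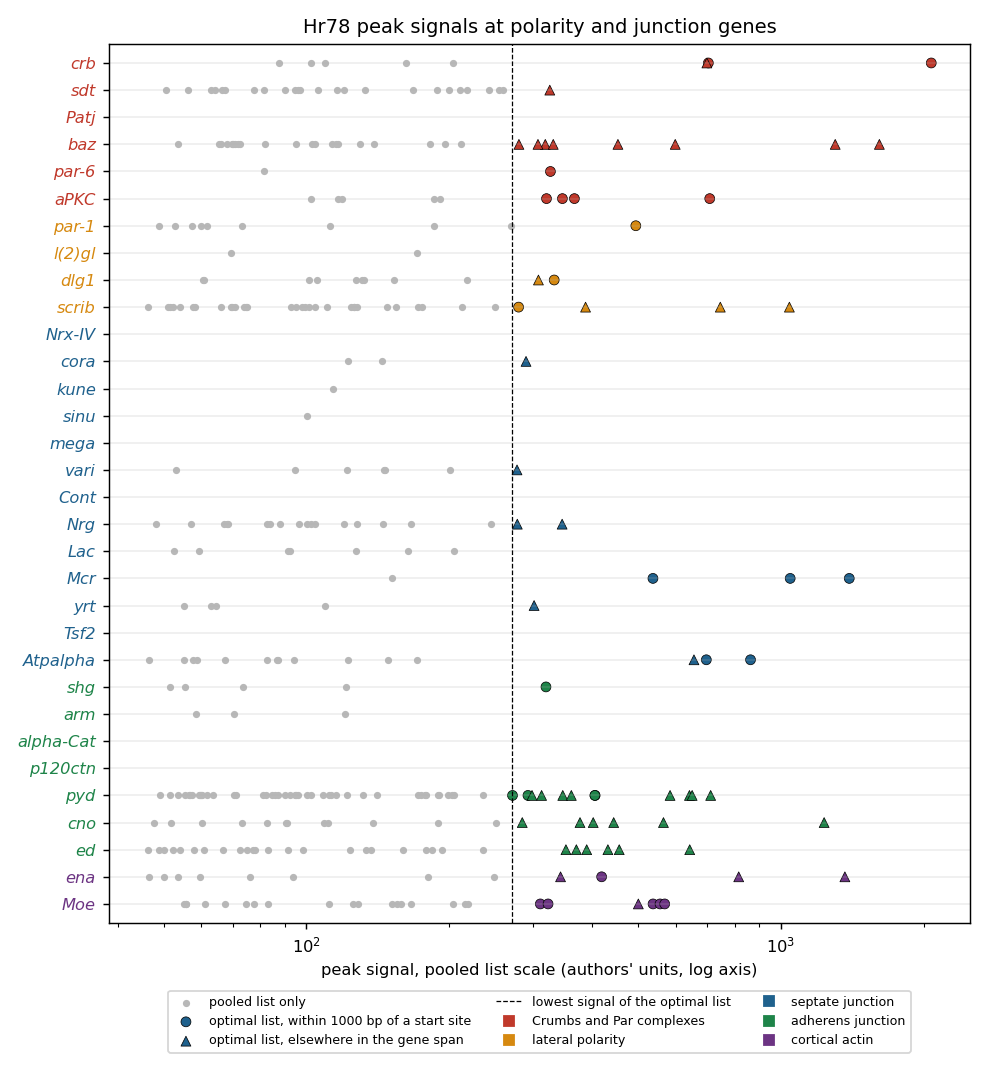
Signal of every Hr78 summit at the 32 polarity and junction genes, 1 line per gene and coloured by class, on a log axis in the authors' units for the pooled list. Grey points are summits of the pooled list alone, and filled circles and triangles are optimal summits within 1000 bp of a start or elsewhere in the gene. The dashed line is the lowest optimal signal, 271.7, and 7 genes have no point at all.

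Sequences are printed only for summits chosen because a hexamer lay within 50 bp. They show those hexamers and not what DNA lay under the member peaks in general. Of the 70 member summits, 30 had any of the 4 hexamers searched. The printed windows of baz, Mcr and Moe lie beside the summit and do not hold it. The hexamer AGGTCA was searched on both strands together with 3 variants, the first of them AGTTCA, another GGGTCA and the last GGTTCA. Capitals mark each one found on the printed strand. All are read 5' to 3' from RefSeq's release 6 genome, the build of the peak files. The first, from the 5' UTR of crb at 3R:24295167-24295196 on the plus strand, spans the summit of highest signal among all the members. The next, from an intron of baz at X:17173165-17173225 on the minus strand, holds a direct repeat of 2 hexamers with 1 base between them. The sequence for cno, at 3R:5203666-5203726 on the minus strand of an intron, holds another such repeat. Those for scrib at 3R:26552355-26552415 (plus), ed at 2L:4080790-4080850 (minus) and dlg1 at X:11370673-11370733 (plus) are intronic and hold AGGTCA at the summit itself. The Mcr sequence is from 2L:8083449-8083478 (plus), upstream of Mcr and inside the neighbouring gene Bsg. The Atpalpha sequence is from 3R:20949955-20950015 (plus), the Moe sequence from X:8879061-8879121 (plus) and the vari sequence from 2L:20792459-20792519 (minus), all in introns.
crb: tgtgctgcttgcAGTTCAaaagggcagcga
baz: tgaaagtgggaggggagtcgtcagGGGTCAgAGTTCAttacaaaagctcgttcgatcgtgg
cno: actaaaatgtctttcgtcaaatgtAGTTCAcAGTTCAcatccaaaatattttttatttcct
scrib: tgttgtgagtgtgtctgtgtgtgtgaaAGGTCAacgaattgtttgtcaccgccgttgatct
ed: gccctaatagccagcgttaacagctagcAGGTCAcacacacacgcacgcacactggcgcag
dlg1: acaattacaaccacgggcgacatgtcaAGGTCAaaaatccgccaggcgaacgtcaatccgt
Mcr: gcatgtgatgtaAGGTCAttcgcgtgaaaa
Atpalpha: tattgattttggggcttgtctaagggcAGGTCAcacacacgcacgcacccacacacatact
Moe: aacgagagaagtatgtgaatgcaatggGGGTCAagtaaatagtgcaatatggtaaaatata
vari: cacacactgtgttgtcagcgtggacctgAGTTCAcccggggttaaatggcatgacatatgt

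Among the apical genes, 5 of the 6 members of the Crumbs and Par complexes were bound, and 3 of them near a start. The signal is the authors' value per peak, used here only to rank peaks within a list. The gene crb, which encodes the transmembrane apical determinant Crumbs, carried the highest member signal, 2076, at 3R:24295183, 105 bp downstream of its only annotated start. That summit ranked 133 of 5723, and its peak ranked 173 in replicate 1 (signal 1043) and 106 in replicate 3 (signal 1059). It was near the top of both replicate lists. The start of the neighbouring gene CG5715 lay 784 bp from it. A further crb summit in the same region, 206 bp away, had a signal of 704, and an intronic one 2846 bp from the start had 698.

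The gene baz encodes Bazooka (Par-3), the scaffold that recruits Par-6 and aPKC to the apical side. Its 8 summits all lay inside its 40.7 kb span on X, at least 2679 bp from its only start. The highest, 1613 at X:17173152, was 13146 bp into the gene and ranked 250. Its peak ranked 278 in replicate 1 (signal 869) and 220 in replicate 3 (signal 768). The direct repeat printed for baz lay beside this summit, at X:17173189-17173201. A further summit, 1302 at X:17178739, lay in a 5' UTR exon and ranked 460 in replicate 1 (signal 693) and 356 in replicate 3 (signal 625). The other 6 summits had signals between 281 and 599, and 3 of the 8 were annotated as 5' UTR. At the start of baz itself there were 2 summits of the pooled list alone, the higher with a signal of 139.

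The remaining apical genes had lower signals. The gene aPKC, which encodes the atypical protein kinase C of the Par complex, held 4 summits with signals of 708, 367, 346 and 321, and 3 of its 4 starts had a summit within 1000 bp. The highest ranked 1480 in replicate 1 (signal 376) and 1234 in replicate 3 (signal 330.3). The summit of signal 367 was 185 bp upstream of aPKC and 138 bp from the start of ckn, so it cannot be given to 1 gene. The gene par-6, for the adaptor that joins aPKC to Cdc42, held a single summit of 327. It lay 499 bp upstream of par-6 but 76 bp from the start of CG8188 and inside that gene. The gene sdt encodes Stardust, the scaffold bound to the tail of Crumbs, and held 1 optimal summit of signal 326 in a 61.9 kb span, 10141 bp from the nearest of its 7 starts. In the pooled list sdt held 25 summits, and 4 of them were near a start, with signals up to 259. Patj, the third protein of the Crumbs complex, had no summit, and the nearest of either list was 3641 bp from its start.

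Of the 4 lateral polarity genes, 3 were bound in the optimal list, all of them near a start, and all 4 in the pooled list. The gene scrib, for the Scribble scaffold, had the highest signal, 1042 at 3R:26552387, with AGGTCA at the summit as printed. It lay 16037 bp into the gene and ranked 624, with ranks of 679 in replicate 1 (signal 567) and 651 in replicate 3 (signal 466). Its 3 other summits had signals of 745, 388 and 280.0, and only the lowest was near a start, 341 bp from the second of 2. The gene par-1, for the kinase that keeps Bazooka off the lateral side, held a single summit of 495, 394 bp upstream and equally far from the start of mei-W68. The gene dlg1, for the scaffold Discs large, held a summit of 333 near its seventh start, 691 bp away. Its other summit, 308 at X:11370704, was 1039 bp from the first start, just outside the window, and carried the printed AGGTCA. The gene l(2)gl, for the aPKC substrate Lethal giant larvae, had no optimal summit, and it lies before the first optimal summit of its arm. Its highest pooled summit had a signal of 171 and ranked 10297 of 30000, with ranks of 9682 in replicate 1 and 12778 in replicate 3.

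The septate junction class was the largest and 6 of its 13 genes were bound, 2 of them near a start. The 2 of 13 near a start make 15.4%, close to the share of all genes. Both were high. The gene Mcr, for a complement-related protein of the septate junction, held summits of 1394, 1047 and 538. The highest, at 2L:8083510, ranked 338 in the optimal list, 329 in replicate 1 (signal 807) and 345 in replicate 3 (signal 633). It lay 528 bp upstream of Mcr but 90 bp from the start of Bsg, inside Bsg, which encodes the cell surface protein Basigin. The summit of 538 lay within Mcr, 753 bp from its start. The gene Atpalpha encodes the catalytic subunit of the sodium pump, which has a structural role in the septate junction. Its summits had signals of 863 and 697 near the third of its 3 starts, and 656 at 1234 bp from the second. The highest ranked 730 in replicate 1 (signal 545) and 1383 in replicate 3 (signal 310.3), a wider gap than at crb, baz or Mcr.

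The 4 other bound septate junction genes were near the lower edge of the optimal list. Their summits lay away from their starts. The gene Nrg, for the adhesion molecule Neuroglian, had summits of 346 and 278, 19616 and 20979 bp from its 5' end. Single intronic summits were found at yrt, for a FERM-domain protein that restrains Crumbs (302), at cora, for the FERM-domain protein Coracle (290.3), and at vari, for the scaffold Varicose (278). The 3 genes kune, sinu and Lac had summits in the pooled list alone, with highest signals of 114, 100.4 and 205. The gene kune lies before the first optimal summit of its arm. Both kune and sinu encode claudins and Lac encodes the immunoglobulin protein Lachesin. The claudin gene mega had none, nor did Nrx-IV, Cont or Tsf2, which encode Neurexin IV, Contactin and Transferrin 2. For Nrx-IV, the nearest pooled summit was 16344 bp away. Those for mega, Cont and Tsf2 were at 3474, 2075 and 3608 bp. Replicate 3 alone listed 1 summit within 1000 bp of the start of Tsf2, 114 bp from it.

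Among the adherens junction genes, 4 of 7 were bound, 2 of them near a start, and these 4 held 25 of the 70 summits. All but 1 of the 25 were in 3 genes, cno, ed and pyd. The gene cno, for the actin-binding scaffold Canoe (afadin), had the highest, 1234 at 3R:5215541, in an intron 1915 bp from the first of its 2 starts. That summit ranked 441 in the optimal list, 441 in replicate 1 (signal 702) and 511 in replicate 3 (signal 525). Its other 5 summits had signals between 285 and 566, and the one of 402 carried the printed direct repeat. At the gene ed, for the immunoglobulin adhesion molecule Echinoid, the 6 signals ran from 352 to 643. All were in introns, 11580 to 62545 bp from its only start, and the highest had AGGTCA at the summit. The 12 summits of pyd, for the ZO-1 homologue Polychaetoid, had signals from 272 to 711 across a gene span of 104.8 kb. Of the 6 pyd starts, 4 had a summit within 1000 bp, with signals of 293, 406, 405.5 and 272. The highest pyd summit, 711, ranked 1522 in replicate 1 (signal 372) and 1163 in replicate 3 (signal 341).

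The other adherens junction genes encode E-cadherin and the catenins. The gene shg, for E-cadherin, held 1 summit of 319.8 in its 5' UTR, 179 bp from its start and 769 bp from that of cpa, which encodes an actin capping protein. It ranked 5429 in replicate 1 (signal 166) and 3914 in replicate 3 (signal 166). The gene arm, for beta-catenin, had none. The nearest optimal summit to it was 1156 bp from a start and outside the gene, just beyond the window. Its highest pooled summit, of signal 121, ranked 28000 in replicate 1 and 9091 in replicate 3, so the replicates differed widely there. No summit was found at alpha-Cat or p120ctn, which encode the other catenins. Those 2 genes lie in stretches with few peaks. The gene alpha-Cat lies beyond the last pooled summit of 3L, at 22945693. Over all arms, 118 protein-coding genes (0.846%) lie outside the stretch between the first and last pooled summit. The gene p120ctn lies before the first optimal summit of 2R, at 5681995, and 820964 bp from any pooled summit. Whether reads could be placed in these stretches was not tested.

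Both cortical actin genes were bound near a start. The gene ena, for Enabled, which promotes the growth of actin filaments, held 4 summits. Its highest, 1365, lay in an intron 3202 bp from the first of 2 starts and ranked 362 in the optimal list, 409 in replicate 1 (signal 720) and 339 in replicate 3 (signal 641). The others had signals of 815, 419 and 343, and the one of 419 lay 198 bp from the second start. The gene Moe, for the membrane-actin linker Moesin, held 6 summits with signals from 311 to 569. Of the 8 Moe starts, 4 had a summit within 1000 bp. The highest Moe summit ranked 2444 in replicate 1 (signal 283) and 1691 in replicate 3 (signal 278). Its signals lay closer together than those of ena.

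**Figure D2:**
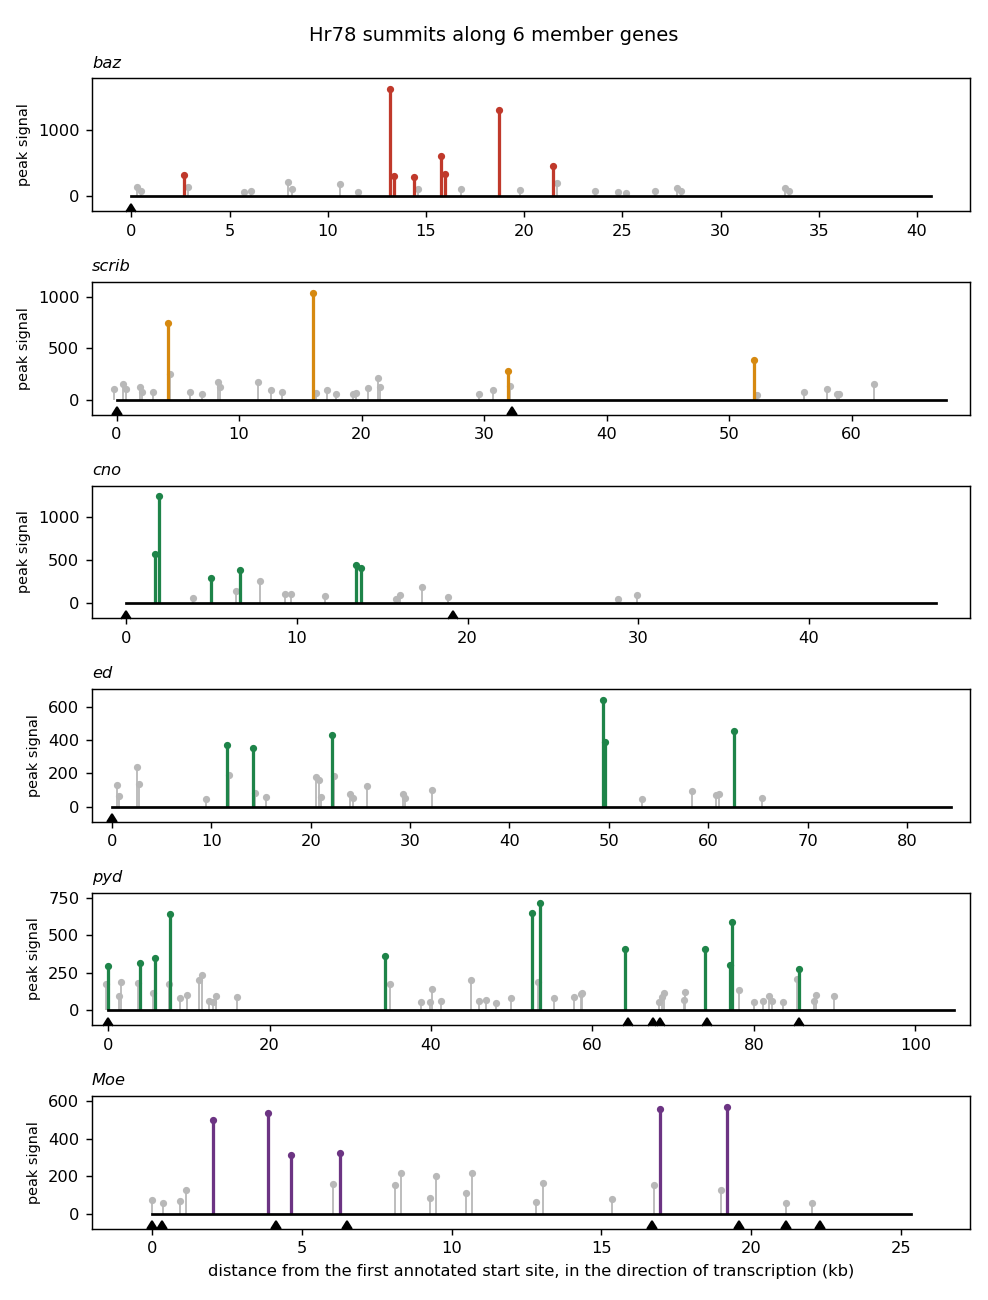
Hr78 summits along baz, scrib, cno, ed, pyd and Moe, with the distance from the first annotated start in kb on the horizontal axis and the peak signal on the vertical axis. Coloured stems are optimal summits, grey stems are summits of the pooled list alone, and black triangles are annotated starts. The high stems of baz, scrib, cno and ed stand inside the gene, while 5 of the 6 coloured stems of Moe stand near a start. Moe has 8 annotated starts, against 1 each for baz and ed and 2 each for scrib and cno.

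Set side by side, the classes differed in the share bound and in the highest signals. Start or span was bound in 83.3% of the Crumbs and Par genes, 75% of the lateral genes, 46.2% of the septate junction genes, 57.1% of the adherens junction genes and both actin genes. In the first 2 of these classes, par-6 and par-1 were counted through single summits no nearer to them than to the start of another gene. The median of the highest signal per bound gene was 708 for the Crumbs and Par genes and 677 for the adherens junction genes. It was 495 for the lateral genes, 967 for the actin genes and 324 for the septate junction genes. The ranges overlapped in every pair of classes, since the septate junction genes alone ran from 278 to 1394 and the Crumbs and Par genes from 326 to 2076. The 1394 was at the Mcr summit that lies nearer to the start of Bsg, and without Mcr the septate junction genes reached 863. With 2 to 13 genes in a class, these differences were not tested. Over all 20 bound members the median was 606, against 552 over the 2929 bound protein-coding genes. For summits near a start the order was the other way, with 457 over 12 members and 521 over 2298 genes.

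Longer genes offer more bases for a summit, so the counts were also set out by gene span. The median span was 18.99 kb for the Crumbs and Par genes, 34.81 kb for the lateral genes, 19.45 kb for the adherens junction genes, 23.7 kb for the actin genes and 8.38 kb for the septate junction genes. The septate junction genes had both the shortest median span and the lowest share bound. The lateral genes had the longest median span but not the highest share. Whether span accounts for the class shares was not tested. Of the 12 members over 20 kb, all had an optimal summit in start or span, against 58.6% of all such genes, and 7 (58.3%) had one near a start, against 31.5%. Of the 14 members of 5 to 20 kb, 7 (50%) were bound, against 39.8%, and 4 (28.6%) near a start, against 28.3%. Of the 6 members under 5 kb only par-6 was bound (16.7%), against 12.9% in start or span and 12.2% near a start. Among these 32 members, the share near a start was thus close to that of other genes in the middle band, and the difference stood in the longest genes. The other 5 short members were Patj and the septate junction genes kune, sinu, mega and Tsf2. Both par-6 in the shortest band and par-1 in the longest were counted through summits no nearer to them than to the start of another gene.

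**Figure D3:**
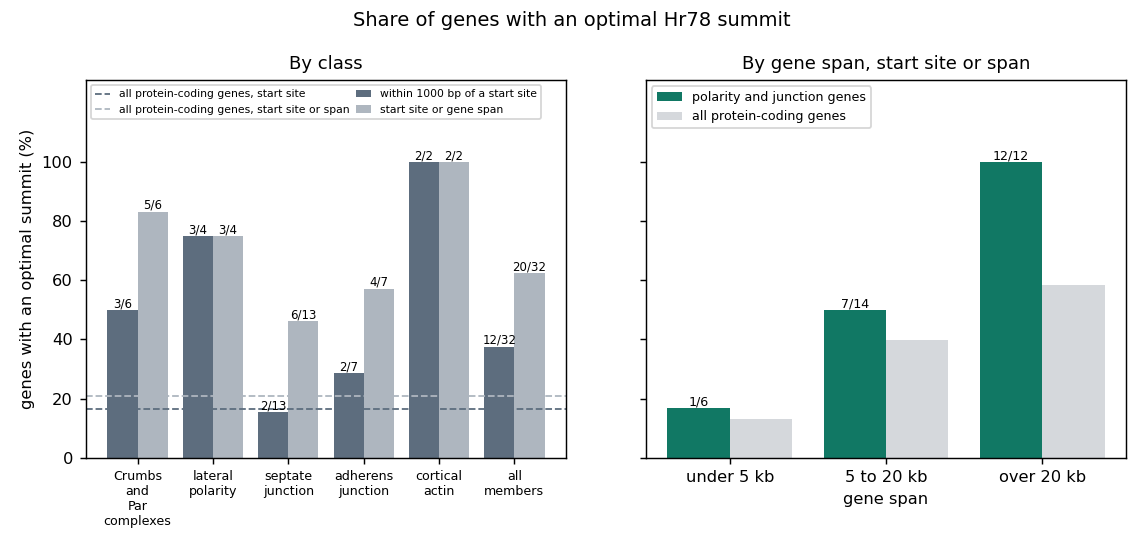
Share of genes with an optimal Hr78 summit, in percent, by class (left, near a start or in start or span) and by gene span (right, start or span), with counts above the bars. Dashed lines and pale bars give the share over all protein-coding genes. All 12 members over 20 kb were bound, as were 7 of 14 and 1 of 6 in the shorter bands. Of these, par-1 and par-6 were counted through summits no nearer to them than to the start of another gene.

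Counted per length, the members' spans held 64 optimal summits in 0.771 Mb, or 8.30 per 100 kb, against 4.59 over the spans of all genes. In the pooled list the densities were 42.0 and 23.7 per 100 kb. Members over 20 kb held 8.99 per 100 kb against 4.02 for all genes of that length, while in the band of 5 to 20 kb the values were 6.60 and 6.57. Members under 5 kb held none in their spans, against 3.60 per 100 kb for all such genes. The densities ran from 21.1 for the actin genes and 10.2 for the Crumbs and Par genes to 8.36 for the adherens, 6.42 for the septate and 4.03 for the lateral genes. Among single genes, Moe had 23.7 per 100 kb, baz 19.6 and ena 18.1, while sdt had 1.61. Long genes therefore differed widely among themselves. At least as many summits as the 12 of pyd were held by 21 protein-coding genes, and at least as many as the 8 of baz by 75.

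The members' peaks were of ordinary height. Their 70 summits had a median signal of 406, with a range of 272 to 2076, against a median of 441 for the whole optimal list. Among the 2861 highest of the list stood 32 of the 70 (45.7%). The 500 highest summits held 6 of them (8.57%, against 8.74% of all summits). Of the members' summits 37.1% lay within 1000 bp of a start of any gene, against 44.3% of all optimal summits.

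Both replicates held a peak over or within 200 bp of each of the 70 summits, as they did for 5688 of all 5723 optimal summits. The optimal list was thresholded by comparing these replicates and holds the pooled peaks of highest signal. The overlap therefore follows largely from how the list was made. Of the 70 summits, 20 shared a replicate peak with a neighbouring summit and were given its rank. A summit of each replicate's own list lay within 100 bp of 68 of the 70, and no such share over all optimal summits is given. The ranks of a summit in the 2 replicate lists differed by a median ratio of 1.26, against 1.33 over all optimal summits that had both ranks. For the 50 summits that shared no replicate peak the median ratio was also 1.26. The rank was higher in replicate 1 for 39 summits and in replicate 3 for 31, against 2717 and 2955 over all optimal summits. For 55 of the 70 (78.6%), the peak was among the 5723 highest of both replicates, against 83.0% of all optimal summits. Among those 50, the ranks parted most at aPKC, where the summit of 367 ranked 9817 in replicate 1 and 2058 in replicate 3.

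**Figure D4:**
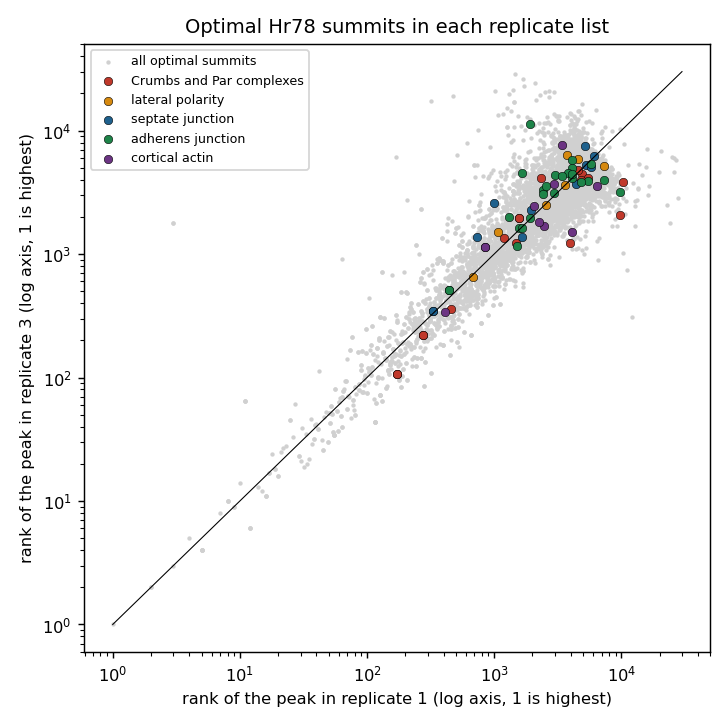
Rank of each optimal Hr78 summit in the replicate 1 list (horizontal) and the replicate 3 list (vertical), on log axes where 1 is the highest signal and the line marks equal ranks. Member summits are coloured by class over all optimal summits in grey. The highest summits of crb, baz, Mcr, ena and cno lie along the line, and the spread grows toward lower ranks.

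Several members have more than 1 start, and binding was uneven over them. The 32 genes have 78 annotated starts, of which 21 had an optimal and 61 a pooled summit within 1000 bp. No share over the starts of all protein-coding genes is given beside these counts. A gene with more starts offers more places near a start, and start number was not matched in the shares given above. Starts 1, 2, 5 and 6 of the 6 of pyd and starts 3 to 6 of the 8 of Moe were bound, as were 2 of the 7 starts of dlg1 and 1 of the 3 of Atpalpha. None of the 7 starts of sdt, the 5 of Nrg or the 4 of arm had an optimal summit, though pooled summits lay near 4, 5 and 4 of them. In all, 11 members had a start summit in the pooled list alone. Their highest signals there ran from 259 at sdt to 73.0 at cno. Of the 26 start summits, 9 were also within 1000 bp of a start of another protein-coding gene. Counting only summits nearer to the member left 10 of 12 members, without par-6 and par-1. These 2 genes had no other optimal summit, so they would also drop out of the 20 members bound in start or span. None of the 44 summits farther inside a gene lay within 500 bp of a start of another protein-coding gene.

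In windows of 101 bp centred on the summits, AGGTCA occurred at 11 of the 70 member summits, or 15.7% (exact 95% interval 8.11 to 26.4%, counting error only). Both intervals in this paragraph take the summits as independent. Yet 5 genes held 38 of the 70, and 20 summits had a neighbour 150 to 250 bp away. The intervals are therefore descriptions and no test against all summits. Over all optimal summits the share of AGGTCA was 10.03%, inside its interval. With the summits of replicate 3 alone the members' share was 10.1%, against 9.66% of all, and with those of replicate 1 alone 17.5%, against 10%. In narrower windows of 30 bp to each side it was 5.71%, against 6.80%, so the members did not stand above all summits in every setting. In windows 500 bp downstream the shares were 1.43% and 2.66%. Any of the 4 hexamers printed above occurred at 30 of the 70, or 42.9% (31.1 to 55.3%), against 30.3% of all summits, and at 17.1% and 12.1% downstream. Direct repeats of these hexamers with a spacer of 1 base stood at 3 member summits (4.29%), in introns of baz, cno and ena, and at 78 of all summits (1.36%). At baz and ena the repeat was at the gene's highest summit.

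Other motifs were searched as a contrast. GATA-factor hexamers, searched on both strands as AGATAA or AGATAG and as TGATAA or TGATAG, occurred at 15.7% of member summits and 24.2% of all summits. The BEAF-32 motif CGATA, which has the same GATA core after a C in place of A or T, occurred at 5.71% against 14.2%. In the windows 500 bp downstream the GATA hexamers stood at 11.4% for members and 19.3% for all, and CGATA at 17.1% and 11.1%. By class, AGGTCA stood at 4 of 11 septate junction summits, 2 of 7 lateral, 2 of 17 Crumbs and Par, 2 of 25 adherens junction and 1 of 10 actin summits. The septate junction 4 were 1 each at vari and Mcr and 2 at Atpalpha. The highest summit of crb had AGTTCA alone, and the highest of cno, the second of baz and the single summits of sdt, par-6, par-1 and yrt had none of the 4 hexamers in the window.

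**Figure D5:**
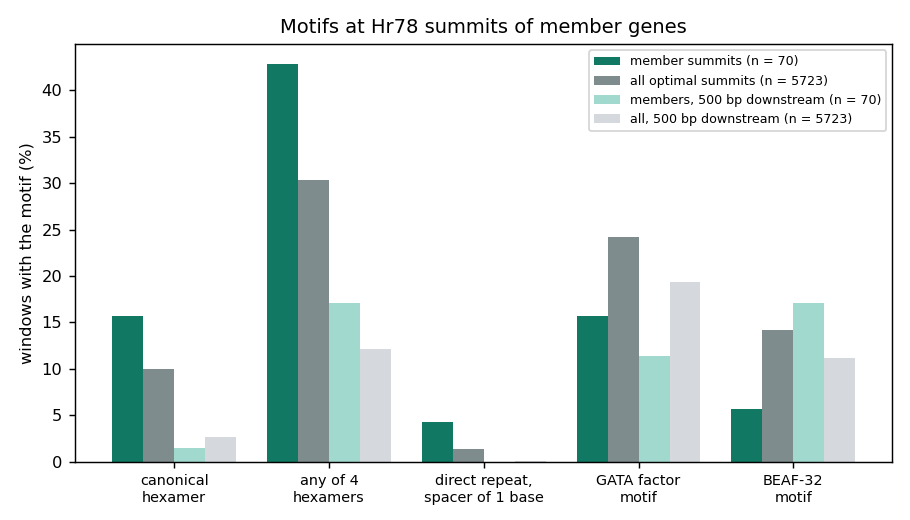
Share of 101 bp windows, in percent, that hold each motif on either strand, at the 70 member summits and all 5723 optimal summits and in windows 500 bp downstream. The canonical hexamer and the set of 4 hexamers stand at 15.7% and 42.9% of member summits, above their downstream windows. The GATA-factor and BEAF-32 motifs stand at 15.7% and 5.71%, below all optimal summits.

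Further genes of the same systems were looked at as a longer list of 54, of which 53 were matched to the annotation. Of these, 31 (58.5%) had an optimal summit in start or span and 22 (41.5%) near a start, against 21% and 16.5% of all protein-coding genes. By group these were 5 of 10 apical, 4 of 5 lateral, 9 of 17 septate junction, 8 of 15 adherens junction and 5 of 6 actin genes. One of the actin genes, cpa, was counted through the summit of shg alone, which is nearer to shg. Shares by gene span were not computed for the longer list, so the 21% and 16.5% are not matched for span. Among its genes over 20 kb, kst, cv-c, Fas2, Fas3, sdk, zip, hbs, kirre, Fhos and Abl were bound. Of these, only Fas2, Fas3, sdk and Fhos were bound near a start. Unlike the members of that length, btsz, CadN, CadN2, fred and rst had no optimal summit. In the band of 5 to 20 kb all were bound but Girdin, mesh, Vinc and Zyx, against 39.8% of all such genes. The members' pattern, with the difference in the longest genes, was thus not seen in this list. All 9 bound septate junction genes of that list were bound near a start, while 2 of the 6 bound members of the class were; the difference was not tested. The highest of them were bou, for an Ly6 protein needed to build the junction (1792), nrv1, for a beta subunit of the sodium pump (1693), and aka, for the tricellular junction protein Anakonda (1075). Lateral genes were led by beta-Spec, for beta-spectrin (2201), Fas3, for the adhesion molecule Fasciclin 3 (793), and alpha-Spec, for alpha-spectrin (607).

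Among the apical genes of that list, kst, for the apical heavy spectrin, reached 1076, the RhoGAP gene cv-c 854 and 14-3-3epsilon 502. The adherens junction group was led by kirre, for an immunoglobulin adhesion molecule (2256), sdk, for the tricellular adherens junction protein Sidekick (1464.5), and Magi, for a junction scaffold (1017). In the actin group Slik, for the kinase that activates Moesin, had 1229, the tyrosine kinase gene Abl 856 and the formin gene Fhos 640.4. Apart from bou, nrv1 and Slik, these highest summits lay over 1000 bp from a start, as did those of baz, cno, scrib, ed and ena.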

How the data were processed

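Hr78-eGFP ChIP-seq peaks from 2 biological replicates of whole embryos were used as deposited, in narrowPeak lists. Per the text files that were deposited, each replicate and both together were called against a control, and a list thresholded on the irreproducible discovery rate (the optimal list) was derived from them. No source used here names the caller, the aligner or the thresholds. The peak signal was deposited by the authors as the caller's value per peak, on a scale that differs between lists. The −log10 q-value was deposited by the authors and was not used to rank peaks. Summit offsets from the region's start are the authors' own. The optimal peaks were the pooled peaks of highest signal. The read depth of the replicates is unknown, so it sets no interval here. Replicates came from 1 transgenic line.

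Coordinates are dm6 per the labels, 1-based, and were read against the release 6 genome from RefSeq with Ensembl annotation release 115 (BDGP 6.54). Summits were assigned to a gene when they lay within 1000 bp of a transcript start or inside the gene, so a summit could count for several genes. A replicate's signal was that of its highest peak holding the summit or nearest to it within 200 bp. Counts are given beside the same counts over all protein-coding genes of the 6 arms, with no test. Motifs were counted in 101 bp windows on both strands, with exact (Clopper-Pearson) intervals. Python 3.11.15, numpy 2.4.6, scipy 1.17.1, pandas 2.3.3 and matplotlib 3.10.9 were used, and the assignment was tested on simulated data.

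The members, classes and longer list were chosen with earlier results of these data known. All 32 members are named, and of the longer list the 3 genes of highest signal in each group. Sip1 matched 2 genes and was left out. Sequences are 61 bases at the highest summit of members with a hexamer within 50 bp, outside 1 arm. At baz, Mcr and Moe these bases held no hexamer, so the printed window was centred on it, as was every other printed window. The cno, dlg1 and Atpalpha sequences were chosen after their values were seen, and those of crb and Mcr, which overlap UTRs, were cut to 30 bases. Alternatives were other windows, lists, replicates, regions and motif distances.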

Additional observations from a re-analysis of the deposited data

How the results depend on the processing

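With 1 group of replicates, no effect between conditions was estimated. No paired analysis was possible because both samples form 1 group. With only the 2861 optimal peaks of highest signal, the members bound in start or span fell from 20 to 12, those bound near a start from 12 to 6, and their summits from 70 to 32, while the share of all genes also fell, to 13.6% and 9.95%. The same list left 3 of the Crumbs and Par genes and 2 of the septate junction genes bound, and gave AGGTCA at 28.1% and any of the 4 hexamers at 56.3% of summits. The shares of all summits there were 12.3% and 34.9%. Windows of 250 bp around starts also left 6 members, with 9.59% of all genes. Motif windows of 30 bp to each side gave 5.71% and 27.1%, against 6.80% and 20.7% of all summits, and windows of 100 bp gave 58.6% for any hexamer, against 46.5%. When optimal peaks had to share 50% reciprocally with the highest peaks of each replicate, 15 members were bound in start or span and 8 near a start. The shares of all genes were then 15.2% and 11.1%. Of the Crumbs and Par genes, 3 were bound in that setting. The counts fell where the setting keeps fewer peaks or a narrower window. The cause of the higher motif shares among the highest peaks was not tested.

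With 1 replicate in place of both, 12 to 13 members were bound near a start and 19 in start or span, with 63 to 69 summits. The shares of all genes were 17.3% and 21.7% without replicate 1, and 16.1% and 20.6% without replicate 3. AGGTCA stood at 10.1 to 17.5% and any hexamer at 34.8 to 39.7% of the members' summits. In the remaining replicate's full list, used in place of the pooled one, 21 to 26 members were bound near a start and 25 to 26 in start or span. No share of all genes is given for the full lists. Bound members per class were 5 (Crumbs and Par), 2 to 3 (lateral), 5 to 6 (septate junction), 4 (adherens junction) and 2 (actin). Chosen after seeing the data, leaving out the lower summit of pairs 150 to 250 bp apart gave 60 summits and 20 bound members. Depth is unknown, so absence from a list is not absence of binding.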
